A study of Homo sapiens with 14 samples.

Results

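The tRNA that carries leucine to UUG codons, tRNA-Leu-CAA, was described here across crosslinking libraries of TRMT2A, the human methyltransferase that makes 5-methyluridine at position 54 of tRNAs. Its members were the clusters that a supplementary table of the study types as tRNA and names tRNA-Leu-CAA. Clusters less than 40 nt apart were joined, and the cDNA counts from 100 nt 5′ to 25 nt 3′ of them were summed on their strand. This gave 5 of 248 tRNA loci, made from 28 of 493 clusters, and all 5 loci were kept by a filter on low counts that 244 loci passed. The table lists clusters with at least 5 counts in at least 3 of 5 experiments, so the members were chosen by their counts in these libraries, and their levels are given as a description.

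The study comprised 14 libraries in 5 groups. FICC-Seq was performed in 3 libraries from HEK293 cells, a human embryonic kidney line, and 3 from HAP1 cells, a near-haploid human line, after 24 h in 100 µM 5-fluorouracil, with an antibody to the endogenous enzyme. The drug is incorporated into RNA in place of uracil, and the methyltransferase stays linked to the base it acts on. iCLIP used the same antibody and UV light, without the drug, in 3 HEK293 and 3 HAP1 libraries. In 2 miCLIP libraries, HEK293 cells were transfected for 24 h with FLAG-tagged TRMT2A in which a catalytic glutamate was replaced by alanine, and anti-FLAG was used, so these 2 libraries hold an introduced enzyme rather than the endogenous one. Reverse transcription tends to stop at or beside the linked base, and the base next to the end of each cDNA was counted. For FICC-Seq and miCLIP the study states that the linked base is more often copied. In such cases it predicts the base after the counted one as the methylated base. The HEK293, HAP1 and miCLIP libraries came from different sequencing runs, so cell line, or introduced enzyme, and run cannot be told apart. The study calls its replicates biological, and the labels do not say how they were separated.

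Human tRNA-Leu-CAA genes carry an intron next to the anticodon. The precursor is trimmed at both ends, the intron is removed by the tRNA splicing endonuclease and the exon ends are ligated, and CCA is added at the 3′ end. Leucine tRNAs also have a long variable arm. Position 54 lies in the T-loop, which pairs with the D-loop at the elbow of the folded tRNA, and position 58 of the same loop is commonly an N1-methylated adenosine, a modification that blocks reverse transcription.

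The 5 genes are shown with the intron in capitals, as read from GRCh37 (hg19), because most differences between them lie in the intron. The anticodon, caa, ends 1 base before the intron.
tRNA-Leu-CAA-1-1, chr6:28864000-28864105, minus strand: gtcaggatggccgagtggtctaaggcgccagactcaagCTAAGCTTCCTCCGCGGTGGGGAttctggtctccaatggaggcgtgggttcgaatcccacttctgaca
tRNA-Leu-CAA-1-2, chr6:28908830-28908934, plus strand: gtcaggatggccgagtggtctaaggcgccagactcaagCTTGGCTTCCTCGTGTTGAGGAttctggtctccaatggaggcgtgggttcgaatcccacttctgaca
tRNA-Leu-CAA-2-1, chr6:27573417-27573524, minus strand: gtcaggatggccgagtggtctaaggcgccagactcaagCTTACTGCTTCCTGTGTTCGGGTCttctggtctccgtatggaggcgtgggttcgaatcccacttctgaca
tRNA-Leu-CAA-3-1, chr6:27570348-27570454, minus strand: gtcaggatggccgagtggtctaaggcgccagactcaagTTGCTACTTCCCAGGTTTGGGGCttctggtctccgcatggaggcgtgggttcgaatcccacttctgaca
tRNA-Leu-CAA-4-1, chr1:249168054-249168159, plus strand: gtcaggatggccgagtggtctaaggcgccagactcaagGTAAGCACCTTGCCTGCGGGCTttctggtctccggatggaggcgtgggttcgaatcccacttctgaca

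The first exon was the same 38 bases in all 5 genes, and the mature tRNAs, without the intron and CCA, were 83 or 84 bases long and differed between genes by 0 to 2 changes. The mature forms of 1-1 and 1-2 were identical. The introns were 22 to 24 bases long and differed by 6 to 13 changes. None of the 5 genes overlapped a GENCODE gene of this build.

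The T-loop and the bases that follow it decide how far a cDNA can be assigned to 1 gene. They are shown from position 53 of the tRNA to 12 bases past the gene, with the genomic bases after the gene in capitals.
1-1: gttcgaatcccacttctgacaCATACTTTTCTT
1-2: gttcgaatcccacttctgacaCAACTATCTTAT
2-1: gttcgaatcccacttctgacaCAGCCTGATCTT
3-1: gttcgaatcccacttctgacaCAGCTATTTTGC
4-1: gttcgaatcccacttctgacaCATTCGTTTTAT
The 5 genes shared their last 33 to 48 bases, and the 20 bases from position 54 to 73 occurred 7 times in the genome, in these 5 genes and in 2 tRNA-Leu-CAG genes. A cDNA from position 54 that ended in CCA would have 1 mismatch to 1-2 and 2 mismatches to the other 4, and the aligner allowed up to 2. The 2 tRNA-Leu-CAG genes would have 3 mismatches to it. The study's settings kept the alignments with the fewest mismatches. Such a cDNA would thus be placed at 1-2 whichever of the 5 genes, or of the 2 tRNA-Leu-CAG genes, it came from. A cDNA within the shared bases alone would match all 5 genes alike and would not be kept as uniquely mapping. Barring read errors, a cDNA from position 53 or 54 placed at another of the 5 would need genomic bases past the gene. The gene that a cDNA in the shared end came from is thus uncertain, above all at 1-2. The counts of 1-2, and the sums over the 5 loci, may also hold cDNAs of tRNA-Leu-CAG, which was not tested. The values per locus below are those of the authors' mapping to single genomic places.

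The libraries held 7002 to 104605 cDNA counts, of which 3809 to 60532 were in tRNA loci. The 5 loci together held 30564 counts. They had 2849, 1758 and 3305 counts in FICC-Seq of HEK293 cells, and 3536, 3958 and 4061 in FICC-Seq of HAP1 cells. They had 2669, 1299 and 981 counts in iCLIP of HEK293 cells, and 1266, 1300 and 1194 in iCLIP of HAP1 cells. The miCLIP libraries had 487 and 1901. As raw counts follow the depth of each library, they were set against the tRNA counts of the same library.

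tRNA-Leu-CAA took 13.8% ± 0.873 (SD, n = 3) of the tRNA counts in FICC-Seq of HEK293 cells and 14.3% ± 1.43 (SD, n = 3) in HAP1 cells. It took 28.8% ± 4.56 (SD, n = 3) in iCLIP of HEK293 cells and 23.8% ± 1.64 (SD, n = 3) in iCLIP of HAP1 cells. In miCLIP it took 2.25% and 3.14%. It was thus the first of 48 tRNA families by mean share in each of the 4 groups with the endogenous enzyme and number 14 with the mutant. The 3 methods did not overlap, as FICC-Seq libraries lay between 12.8% and 15.8% and iCLIP libraries between 22.5% and 34.04%. Within a method, HEK293 and HAP1 libraries overlapped in FICC-Seq. In iCLIP they nearly met, with the highest HAP1 library at 25.6% and the lowest HEK293 library at 25.8%. How many other families separate by method or by cell line was not counted. Within the leucine tRNAs, the Leu-CAA loci held 48.8% ± 2.07 and 46.2% ± 2.42 of the counts in FICC-Seq of HEK293 and HAP1 cells, 59.4% ± 1.31 and 51.98% ± 2.10 in iCLIP (SD, n = 3 each), and 40.1% ± 5.03 (SD, n = 2) in miCLIP.

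**Figure D1:**
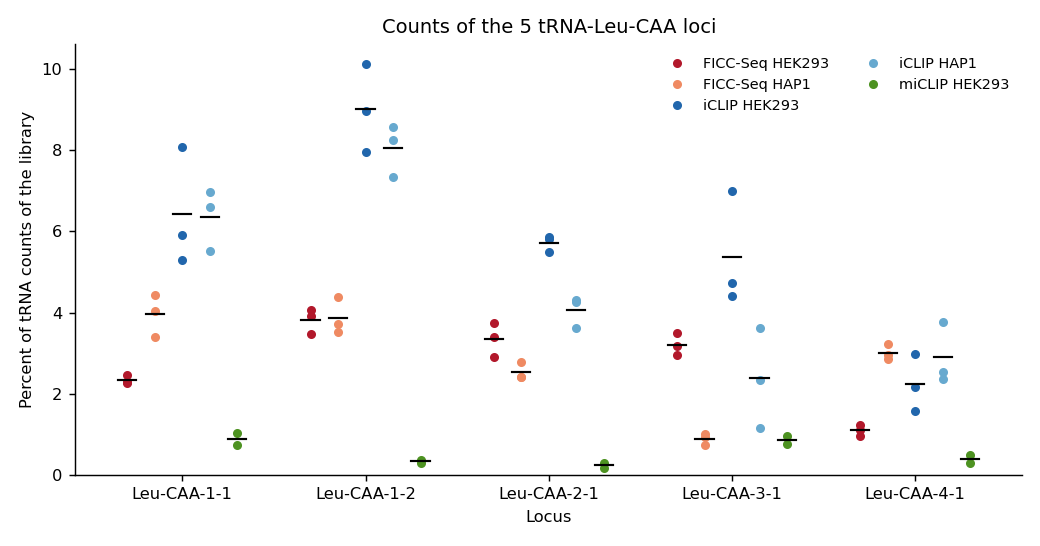
Percent of the tRNA counts of a library (vertical axis) at each of the 5 tRNA-Leu-CAA loci (horizontal axis), coloured by group. Each point is a library and the black lines are group means. The iCLIP points of 1-2 are highest, with means of 9.02% and 8.06%, the miCLIP means are all under 1%, and the HAP1 points are lower than the HEK293 points at 3-1.

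The loci did not keep the same order in the 2 cell lines. In FICC-Seq of HEK293 cells, 4-1 was lowest, with 217, 168 and 227 counts, and 3-1 had 686, 403 and 745. In HAP1 cells 4-1 had 725, 827 and 898 counts and 3-1 had only 208, 281 and 232. The counts of the 2 cell lines did not overlap at either locus, in opposite directions. Raw counts also follow depth, and such separation was not counted over all loci, unlike the calls below. As a percentage of tRNA counts, 4-1 went from 1.10% ± 0.131 in HEK293 to 3.01% ± 0.195 in HAP1 cells, and 3-1 from 3.21% ± 0.279 to 0.889% ± 0.136 (SD, n = 3 each). The other 3 loci lay between 2.34% and 3.95% in both lines, with 1-1 at 2.34% ± 0.108 and 3.95% ± 0.514, 1-2 at 3.82% ± 0.318 and 3.88% ± 0.458, and 2-1 at 3.35% ± 0.417 and 2.53% ± 0.220.

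This difference between the lines was tested over all 244 loci with limma, on counts scaled by TMM, and with Benjamini-Hochberg adjusted p. With FICC-Seq, 4-1 was 2.80-fold higher in HAP1 cells (log2 fold change 1.49, SE 0.298, adjusted p = 0.00119) and 3-1 was 3.55-fold lower (−1.83, SE 0.310, adjusted p = 0.000341). One locus of 5 was thus called in each direction, against a background of 6.15% of all loci higher and 6.15% lower. The 3 other loci were not called, with log2 fold changes of 0.78 for 1-1 (adjusted p = 0.0643), 0.05 for 1-2 (adjusted p = 0.969) and −0.37 for 2-1 (adjusted p = 0.509). Locus 1-1 was called higher as well without replicate 1 of iCLIP of HEK293 cells, replicate 2 of iCLIP of HAP1 cells, or either miCLIP library, with log2 fold changes of 0.73, 0.78, 0.75 and 0.78 and limma adjusted p of 0.0188 to 0.0474.

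In iCLIP, 3-1 had 548, 231 and 168 counts in HEK293 and 63, 210 and 109 in HAP1 cells, whose libraries held fewer tRNA counts than the deepest HEK293 library. On the scaled counts 3-1 was lower again in HAP1 cells, by 2.69-fold (log2 fold change −1.43, SE 0.318, limma adjusted p = 0.0234), where 0.41% of all loci were called lower. This call was lost when any 1 of 5 libraries was left out, namely replicate 3 of FICC-Seq of HEK293 cells, replicate 3 of FICC-Seq of HAP1 cells, replicates 1 and 3 of iCLIP of HEK293 cells, or replicate 1 of iCLIP of HAP1 cells, with log2 fold changes from −1.70 to −1.02 over all libraries left out. Locus 4-1 had 234, 106 and 60 counts in HEK293 and 139, 137 and 176 in HAP1 cells, a log2 fold change of 0.23 (limma adjusted p = 0.885). The difference between the FICC-Seq and the iCLIP change was 1.25 for 4-1 (SE 0.429, limma adjusted p = 0.315) and −0.40 for 3-1 (SE 0.445, adjusted p = 0.798), and none of the 244 loci was called for this difference (0%). For 4-1 the unadjusted p of the difference was 0.0080. A difference between the methods was thus not shown at either locus.

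FICC-Seq was then set against iCLIP at each locus. In HEK293 cells all 5 loci were lower in FICC-Seq, where 31.6% of all loci were called lower and 23% higher. The log2 fold changes were −1.55 for 1-1 (limma adjusted p = 0.000143), −1.34 for 1-2 (adjusted p = 0.000303), −1.10 for 4-1 (adjusted p = 0.00503), −0.88 for 2-1 (adjusted p = 0.0104) and −0.83 for 3-1 (adjusted p = 0.0274), with SE from 0.259 to 0.309. The median of the 5 loci was −1.10, and that of all loci was −0.04. Scaling by library totals moved the median of all loci to 0.77 and left 2 of the 5 loci called lower. Locus 3-1 was no longer called without replicate 2 of FICC-Seq (log2 fold change −0.68, limma adjusted p = 0.0813) or replicate 1 of iCLIP of HEK293 cells (−0.57, adjusted p = 0.114). tRNA counts were 83.6% ± 1.73 of all counts in FICC-Seq and 53.5% ± 8.12 in iCLIP of HEK293 cells (SD, n = 3 each).

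In HAP1 cells 2 of the 5 loci were lower in FICC-Seq, against 29.1% of all loci. They were 3-1 (log2 fold change −1.23, limma adjusted p = 0.00374) and 1-2 (−0.996, adjusted p = 0.00374). Loci 1-1 and 2-1 both had −0.62 (adjusted p = 0.0621 and 0.0655), and 4-1 had 0.15 (adjusted p = 0.705). The median was −0.62 for the 5 loci and −0.26 for all loci. With median-of-ratios scaling, or after a correction for barcode collisions, 4 of the 5 loci were called lower. The median of all loci also moved down under these settings, to −0.50 and −0.42. This was also so without replicate 3 of FICC-Seq of HEK293 cells, replicate 1 of iCLIP of HEK293 cells, replicate 2 of iCLIP of HAP1 cells, or either miCLIP library, when 1-1 and 2-1 were called too, with log2 fold changes between −0.86 and −0.62. Without replicate 3 of FICC-Seq of HAP1 cells 2-1 was called (−0.71, limma adjusted p = 0.0466).

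Against miCLIP, all 5 loci were higher in FICC-Seq of HEK293 cells, where 32% of all loci were called higher and 45.9% lower. The fold ranged widely among the loci. 2-1 was 20.8-fold higher (log2 fold change 4.38, limma adjusted p = 8.58e-10), with 666, 399 and 880 counts in FICC-Seq and 35 and 181 in miCLIP. 1-2 was 16.0-fold higher (4.00, adjusted p = 8.58e-10), with 798, 474 and 923 counts against 65 and 226. The other loci were 5.34-fold (3-1), 4.07-fold (4-1) and 3.77-fold higher (1-1), with adjusted p from 2.79e-06 to 1.80e-05. In miCLIP, 1-1 and 3-1 were the highest loci, at 0.887% ± 0.210 and 0.852% ± 0.141 of tRNA counts, and 2-1 the lowest, at 0.230% ± 0.0972 (SD, n = 2 each).

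**Figure D2:**
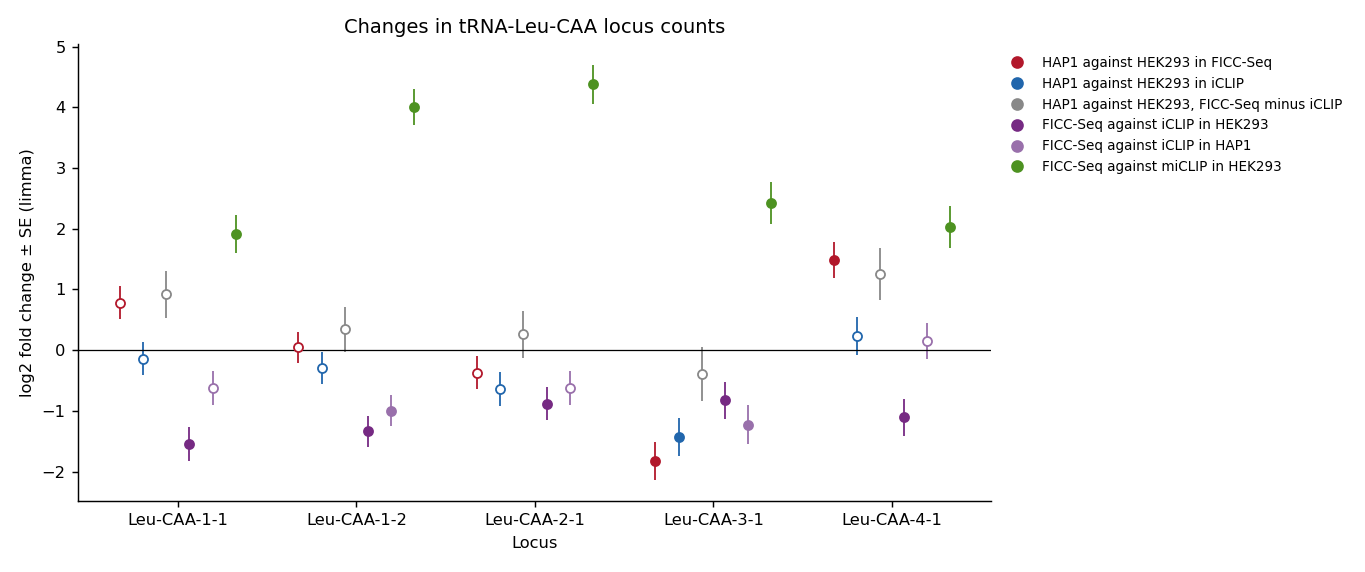
Log2 fold change with its standard error (vertical axis) of the 5 tRNA-Leu-CAA loci (horizontal axis) in the 6 contrasts, from limma. Filled points passed the adjusted p threshold of 0.05. The contrast with miCLIP is above 1.9 at every locus, and 3-1 and 4-1 lie on opposite sides of 0 for HAP1 against HEK293 in FICC-Seq.

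Other tRNAs that share the anticodon's amino acid or the intron were counted in the same fits. Of 19 other leucine loci, 4 were higher and 5 lower in FICC-Seq than in iCLIP of HEK293 cells (median log2 fold change −0.05), and 3 were higher and 3 lower in HAP1 cells (0.12). Against miCLIP 14 of the 19 were higher and 0 lower (median 1.60). tRNA-Tyr-GTA, whose genes also carry an intron, had 6 of 12 loci higher and 1 lower in FICC-Seq than in iCLIP of HEK293 cells, 7 higher and 0 lower in HAP1 cells, and 7 higher and 5 lower against miCLIP. Of 24 serine loci, which like leucine tRNAs have a long variable arm, 7 were higher and 10 lower against miCLIP, and 1 was higher and 5 lower against iCLIP in HEK293 cells. Against miCLIP, 0 of 5 tRNA-Ile-TAT loci were higher and 3 lower, and 0 of 3 tRNA-Arg-TCT loci were higher and 2 lower. Both of these families include intron-containing genes. Between the cell lines in FICC-Seq, 3 other leucine loci were higher and 0 lower, and 1 tyrosine locus was higher and 2 lower.

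The 3 families whose summed counts followed those of tRNA-Leu-CAA most closely over the 14 libraries were other leucine tRNAs, namely Leu-CAG (Pearson r = 0.987 of log2 scaled counts), Leu-TAG (r = 0.986) and Leu-TAA (r = 0.816). These libraries form 5 groups and the families share their library and depth, and the tRNA-Leu-CAG genes share the end of the sequence shown above, so r is a description. Leu-CAG took 5.69% ± 0.752 and 7.33% ± 0.160 of tRNA counts in FICC-Seq of HEK293 and HAP1 cells, 10.3% ± 1.51 and 11.5% ± 1.00 in iCLIP (SD, n = 3 each), and 1.05% ± 0.306 (SD, n = 2) in miCLIP. Leu-TAA stood apart from this order, with 3.75% ± 0.502 and 3.81% ± 0.322 in FICC-Seq and 2.86% ± 0.430 and 2.67% ± 0.170 in iCLIP. The groups of Leu-TAA libraries thus had higher means in FICC-Seq than in iCLIP, whereas those of Leu-CAG and Leu-CAA had lower ones.

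Within tRNA-Leu-CAA, the counts were placed on the standard numbering, read from the gene sequence. In FICC-Seq of HEK293 cells positions 53 and 54 held 68.7%, 61.7% and 72.7% of the Leu-CAA counts, and in HAP1 cells 55.8%, 52.6% and 54.4%. In iCLIP they held 26.9%, 20.9% and 11.2% in HEK293 and 26.1%, 26.5% and 19.2% in HAP1 cells. The FICC-Seq libraries were all above the iCLIP libraries. The difference, averaged over the lines, was 39.2 percentage points (exact permutation test of libraries within cell lines, two-sided, p = 0.005, the smallest it can give, adjusted p = 0.0055 over 33 families). All 33 families were called higher in FICC-Seq (100%), with a median of 46.3 points, so the direction was general. All 5 Leu-CAA loci were called, with differences from 27.8 points for 1-1 to 53.9 points for 2-1, where 98.3% of 59 loci were called.

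The 2 positions were not used alike. Position 53, the base before the methylated one, held 52.4% and position 54 held 15.3% of the Leu-CAA counts in FICC-Seq of HEK293 cells, and 32.97% and 21.3% in HAP1 cells. In iCLIP position 53 held 2.99% in HEK293 and 4.54% in HAP1 cells, and position 54 held 16.7% and 19.4%. Position 53 thus took 77.4% ± 1.43 and 60.8% ± 0.654 of the counts of the pair in FICC-Seq of HEK293 and HAP1 cells, and 13.4% ± 6.94 and 18.7% ± 2.90 in iCLIP (SD, n = 3 each). In the other tRNA loci with a placed T-loop these means were 65.4%, 65.7%, 26.3% and 30.9%. The 2 miCLIP libraries did not show 1 pattern, with 38.7% of the pair at position 53 in replicate 1 and 77.3% in replicate 2.

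**Figure D3:**
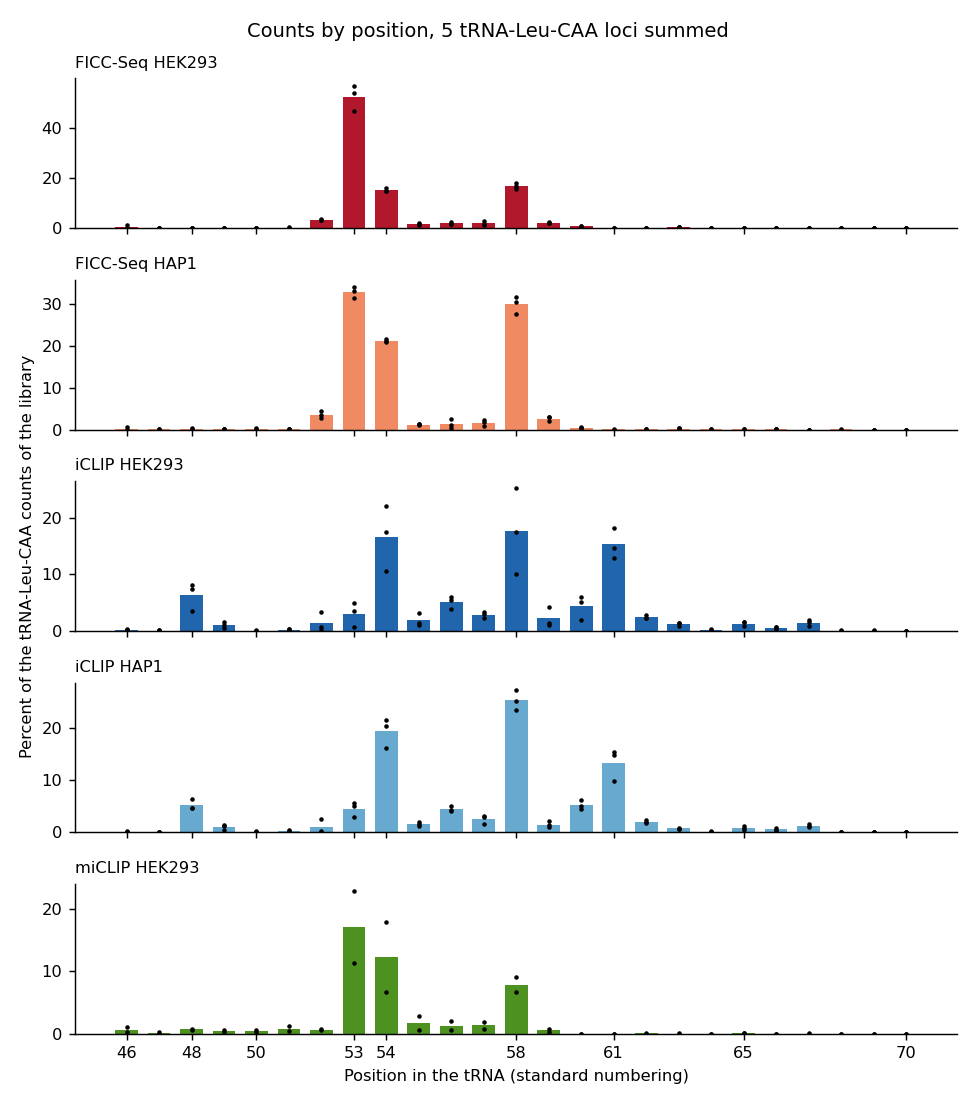
Percent of the tRNA-Leu-CAA counts of a library (vertical axis) by tRNA position (horizontal axis, standard numbering), 1 panel per group, with the mean over libraries as bars, single libraries as points and a vertical scale of its own in each panel. FICC-Seq peaks at position 53, with 58 next, and iCLIP spreads over 48, 54, 58 and 61, with 15.3% and 13.4% at position 61.

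Where FICC-Seq libraries had their counts at 53 and 54, iCLIP libraries had many 3′ of position 58. Positions 59 to 65 held 24.2% to 31.1% of the Leu-CAA counts in iCLIP of HEK293 and 19.7% to 25.9% in HAP1 cells, and 2.77% to 3.99% in FICC-Seq. The difference was −22.0 points (exact permutation test, p = 0.005, adjusted p = 0.00688), where 78.8% of families were called lower with a median of −7.68 points. All 5 loci were called, from −14.1 points for 1-1 to −29.3 for 2-1, as were 83.1% of loci. When position 54 was instead set from where FICC-Seq counts of the other line were highest, which is 58 at 1-1 and 4-1 in HAP1 cells, 4-1 was no longer called (−10.16 points, exact permutation test, adjusted p = 0.131). Most of it lay at position 61, which had 757 of 4949 counts in iCLIP of HEK293 cells and 501 of 3760 in HAP1 cells, but 2 of 7912 and 3 of 11555 in FICC-Seq. In miCLIP it had 0 of 487 and 0 of 1901, which allows up to 0.616% and 0.158%, for counting error only. The iCLIP means at position 61 were 15.3% ± 2.70 and 13.4% ± 3.09 (SD, n = 3 each), against 7.16% and 7.82% in the other placed loci and 14.3% and 13.97% in the other leucine loci. Position 48, at the end of the variable arm, likewise held 6.32% ± 2.52 and 5.22% ± 1.08 in iCLIP (SD, n = 3 each) but 0.077% and 0.151% in FICC-Seq.

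Position 58 was the only one of the 4 windows in which FICC-Seq and iCLIP of tRNA-Leu-CAA were not called different, with 1.89 points between them (exact permutation test, adjusted p = 0.634). None of the 5 loci was called there either, where 1.69% of loci were called higher and 10.2% lower, and their differences ran from −0.75 points for 1-1 to 8.94 points for 4-1. Without replicate 1 of iCLIP of HEK293 cells 4-1 was called, with 13.04 points (exact permutation test, adjusted p = 0.0246). For the 5 loci summed, the share at position 58 was 18.0%, 17.0% and 15.4% in FICC-Seq of HEK293 cells, and 31.6%, 27.7% and 30.6% in HAP1 cells. In iCLIP it was 25.2%, 17.6% and 10.1% in HEK293 and 27.3%, 23.5% and 25.1% in HAP1 cells. In miCLIP it was 9.03% and 6.68%. Among all families 36.4% were called lower at position 58 in FICC-Seq than in iCLIP and 6.06% higher, with a median of −7.46 points.

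In FICC-Seq the HAP1 libraries had the higher share at position 58 at all 5 loci, and all HAP1 libraries were above all HEK293 libraries at each of them. The mean went from 11.5% to 24.7% at 1-2, from 10.8% to 18.6% at 2-1, from 17.5% to 25.2% at 3-1, from 26.6% to 33.5% at 1-1 and from 29.95% to 43.1% at 4-1. Of 137 tRNA loci with enough counts, 11.7% had all HAP1 libraries above and 16.8% had them all below, with a median change of −1.83 points, and the share in the other placed loci together was 18.2% in HEK293 and 17.8% in HAP1 cells. An exact permutation test of 3 against 3 libraries cannot go below p = 0.10. The 5 loci share the sequence of the T-loop and the libraries, so they are not 5 separate tests. In iCLIP only 1-1 had all HAP1 libraries above, where 5.97% of 67 loci did, and the means of 2-1 were 13.1% in HEK293 and 12.9% in HAP1 cells.

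**Figure D4:**
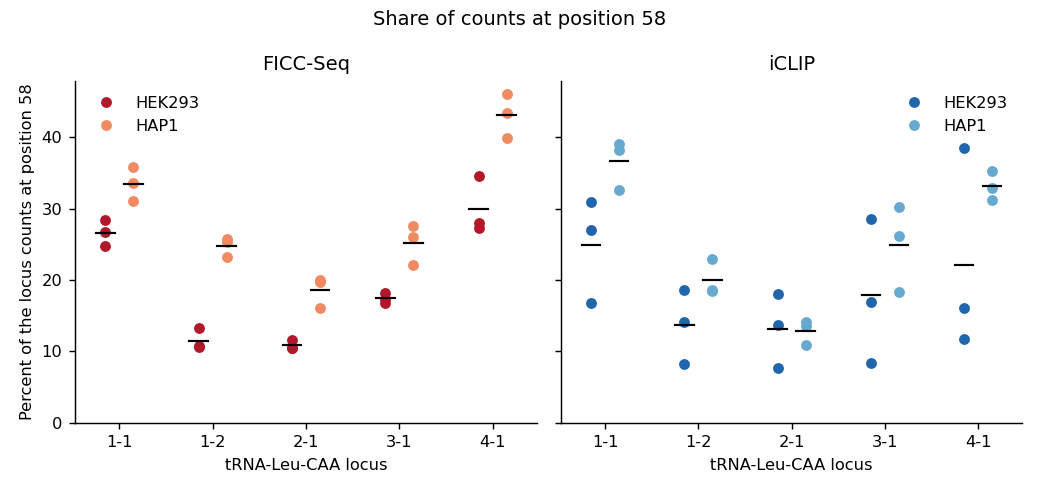
Percent of the counts of a locus at position 58 (vertical axis) for the 5 tRNA-Leu-CAA loci (horizontal axis), in FICC-Seq (left) and iCLIP (right). Each point is a library and the lines are means of 3. In FICC-Seq the HAP1 points are above the HEK293 points at all 5 loci, with the highest mean at 4-1 (43.1%), and in iCLIP the points of the lines overlap except at 1-1.

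At positions 53 and 54 the HAP1 libraries were all below the HEK293 libraries in FICC-Seq at 1-2, 2-1 and 4-1, where 10.9% of loci were. At 1-1 the means were 52.1% in HEK293 and 51.3% in HAP1 cells. Against the other placed tRNA loci of the same library, tRNA-Leu-CAA had a lower share at positions 53 and 54 in all 6 FICC-Seq libraries, by 8.51 points (SD 5.84). Its mean was 60.97% against 69.5%, which put it in place 25 of 35 families (exact sign-flip test, two-sided, p = 0.031, the smallest 6 libraries allow, adjusted p = 0.0456), where 34.3% of families were called lower. Within the lines it was 67.7% against 71.1% in HEK293 and 54.3% against 67.8% in HAP1 cells, and the other leucine loci together had 60.9% and 57.2%, below tRNA-Leu-CAA in HEK293 and above it in HAP1 cells. The call was lost with an equal weight for each locus (−7.20 points, adjusted p = 0.0608) and after the correction for barcode collisions (−7.43 points, adjusted p = 0.0951). At position 58 its mean was 23.4% against 18.0%, and it was higher in 3 of 6 libraries, those of HAP1 cells (exact sign-flip test, adjusted p = 0.265). The other 4 leucine families were all called higher at position 58, with means of 33.2% for Leu-AAG, 29.9% for Leu-TAG, 28.05% for Leu-CAG and 26.8% for Leu-TAA (exact sign-flip test, adjusted p = 0.0497 each), where 31.4% of families were called higher.

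Bases upstream of the T-arm separate precursor from spliced tRNA in part, as a read that starts in the leader, the first exon or the intron and aligns without a gap across the genome needs the intron to be present or the read to end before it. The leader, first exon and intron together held 79 of 7912 Leu-CAA counts in FICC-Seq of HEK293 cells (mean of libraries 1.16% ± 0.824). They held 233 of 11555 in HAP1 cells (1.97% ± 0.912, SD, n = 3 each). In miCLIP they held 1114 of 2388, with 48.7% in one library and 38.8% in the other. In iCLIP they held 429 of 4949 in HEK293 cells, from 2.44% to 29.6% among the libraries, and 258 of 3760 in HAP1 cells (6.93% ± 2.40, SD, n = 3). Both miCLIP libraries were thus above every other library.

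The difference from FICC-Seq of HEK293 cells was 42.6 points (exact permutation test, two-sided, p = 0.1, the smallest that 2 against 3 libraries allow), and that from iCLIP of HEK293 cells was 31.2 points (p = 0.2 by the same exact test). FICC-Seq was below iCLIP by 8.18 points over both lines (exact permutation test, p = 0.005, the smallest it can give). The size of this difference rested on replicate 3 of iCLIP of HEK293 cells, without which it was −3.93 points (exact permutation test, p = 0.005). It did not pass the threshold without replicate 1, 2 or 3 of FICC-Seq of HEK293 cells (−8.09, −8.41 and −8.03 points, exact permutation test, p = 0.085, 0.07 and 0.085). In miCLIP the leader held 12.03% ± 3.32 of the Leu-CAA counts, the first exon 11% ± 4.53, the intron 20.7% ± 5.76 and the second exon before the T-arm 11.5% ± 1.45 (SD, n = 2 each). By locus, the leader, first exon and intron together held 52.03% ± 11.1 at 3-1, 46.02% ± 12.1 at 1-1, 42.3% ± 1.05 at 1-2, 36.6% ± 8.82 at 2-1 and 26.2% ± 6.16 at 4-1 (SD, n = 2 each), and the values of the 2 libraries overlapped between neighbours in this order. Over all 14 libraries the most counted leader position was 5 bases before the gene at 1-2 (149 counts), 3-1 (85) and 4-1 (25), and 6 bases before it at 1-1 (145) and 2-1 (96). In the intron of 3-1, shown above, 43 counts in the 2 miCLIP libraries fell at chr6:27570413, near its start, and 27 at chr6:27570410. At 1-1, 31 fell at chr6:28864063.

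More than 5 nt 5′ of position 54, tRNA-Leu-CAA had 55.2% ± 5.51 of its miCLIP counts (SD, n = 2), the other leucine loci 24.0% ± 0.924, tRNA-Tyr-GTA 38.3% ± 10.0, the serine loci 23.8% ± 5.55 and all other placed loci 32.4% ± 6.82. The 2 Leu-CAA values, 51.3% and 59.1%, were above both values of each of these lists, and with 2 libraries no test of this difference was made. tRNA-Ile-TAT and tRNA-Arg-TCT were not listed apart, so the values do not place tRNA-Leu-CAA among all families with introns. In FICC-Seq this share of tRNA-Leu-CAA was 0.84%, 7.22% and 0.64% in HEK293 and 1.13%, 8.49% and 2.46% in HAP1 cells, so replicate 2 stood apart in both lines. In iCLIP it was 7.53%, 16.2% and 38.5% in HEK293 cells, with replicate 3 highest, and 14.6%, 12.6% and 15.3% in HAP1 cells. FICC-Seq was below iCLIP by 14 points (exact permutation test, p = 0.005, adjusted p = 0.00688), where 87.9% of families were called lower with a median of −20.9 points. All 5 loci were called, with differences from −10.2 points at 4-1 to −17.3 at 3-1, as were 91.5% of loci. Locus 1-1 was not called without replicate 1 or 3 of FICC-Seq of HEK293 cells (−10.95 and −10.93 points, exact permutation test, adjusted p = 0.0833 and 0.0819), or without replicate 3 of iCLIP of HEK293 cells (−6.91 points, adjusted p = 0.0522). Locus 3-1 was not called with the replicate number as a block (exact sign-flip adjusted p = 0.0683), and the differences of 1-1 and 4-1 changed sign, to 4.92 and 6.24 points, with the other placement of position 54 given above. With any 1 library left out, the difference for the 5 loci summed lay between −17.3 and −9.55 points, with adjusted p up to 0.0359 by the same exact test.

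**Figure D5:**
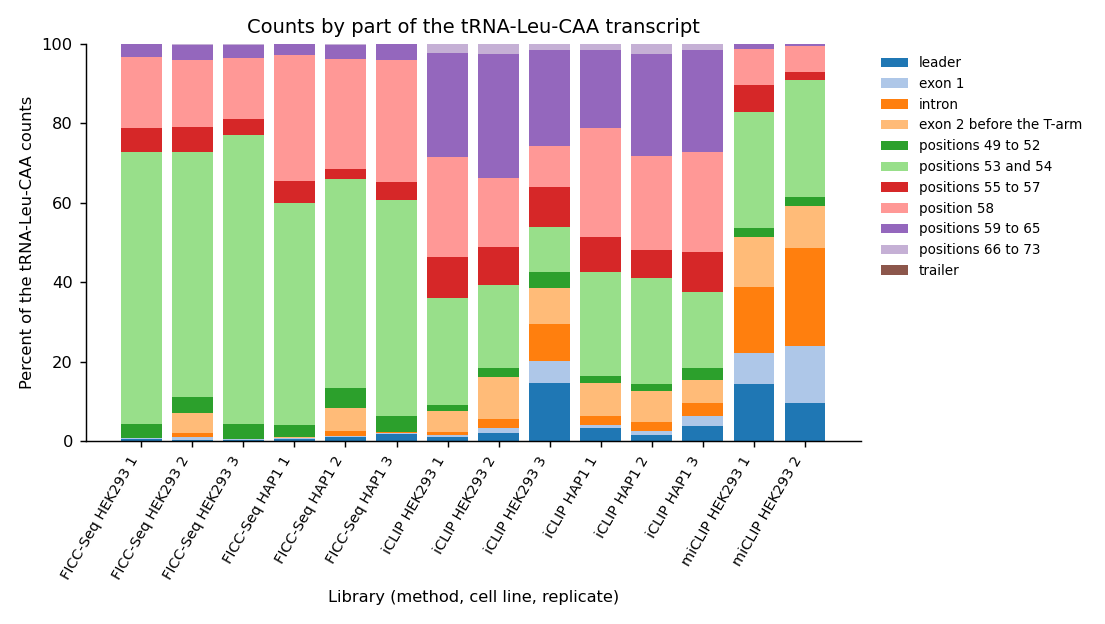
Percent of the tRNA-Leu-CAA counts (vertical axis) in each region of the gene and its flanks, stacked to 100%, for each of the 14 libraries (horizontal axis). Positions 53 and 54 hold 52.6% to 72.7% in FICC-Seq, and the leader, first exon and intron hold 38.8% and 48.7% in the 2 miCLIP libraries.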

How the data were processed

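Per the file headers and the study's methods, the authors deposited for each library the cDNA count per genomic position, as whole numbers whose sign gives the strand, without scaling. On the iCount server, PCR duplicates were discarded by 5 random bases (1024 barcodes), reads were mapped to hg19 (Ensembl 59) with bowtie, allowing 2 mismatches, and uniquely mapping reads were kept. Positions with many cDNAs may therefore be undercounted, and reads across the spliced junction are not aligned. The condition label of FICC-Seq libraries reads Untreated, while their description and protocol state 5-fluorouracil, and the source label of miCLIP spells the cells HEK393.

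Position 54 was read from the genome sequence as a T-stem of at least 4 pairs with an acceptor stem of at least 6, at 234 loci. A count model had been planned, and limma 3.58.1 was used in its place on absolute values summed per locus (R 4.3.3, voom weights, TMM factors over tRNA loci, all 14 libraries in 1 fit), tested on simulated data. Shares needed at least 10 counts in each library and were tested by exact permutation with scipy 1.17.1 (Python 3.11.15, numpy 2.4.6, pandas 2.3.3, pysam 0.24.0, matplotlib 3.10.9). All 5 loci and the 3 most correlated families were named. Members, lists and tests were chosen with earlier results of these data known. Within a method, same-numbered HEK293 and HAP1 libraries deviated together (r from 0.340 to 0.645 for FICC-Seq and from 0.116 to 0.336 for iCLIP). In FICC-Seq, HEK293 replicate 3 and HAP1 replicate 1 had r = 0.402, and only the r of replicate 2 lay above it. Between methods, same-numbered r ran from 0.0027 to 0.150 in HEK293 and from 0.0996 to 0.272 in HAP1 cells. Whether the numbers pair libraries was thus not settled, and the replicate number was used as a block only as an alternative. All 13 replicate pairs differed beyond sampling noise. The opposite strand held 3 counts in all. The authors' filtered peak lists were not used here.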

Additional observations from a re-analysis of the deposited data

How the results depend on the processing

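Depth limited the miCLIP and iCLIP values per locus, where a library held as few as 35 and 60 counts. The DESeq2 Wald alternative was not run. With library totals in place of TMM, 2 loci were higher and 2 lower in HAP1 than in HEK293 cells in FICC-Seq, 2 were lower in FICC-Seq than in iCLIP of HEK293 cells, and 1 was higher in HAP1 cells. This scaling moved the median of all loci from −0.04 to 0.77 in HEK293 and from −0.26 to 0.17 in HAP1 cells. Under it, changes close to 0 turned sign: 1-2 between the lines in FICC-Seq (−0.084), 1-1 in iCLIP (0.036), and the differences between methods of 1-2 (−0.0017) and 2-1 (−0.13). With median-of-ratios factors, 4 loci were lower in FICC-Seq than in iCLIP of HAP1 cells and 4-1 turned to −0.079. In this contrast the median of all loci was −0.50 with these factors and −0.42 after the collision correction. After the collision correction, 2 loci were higher in HAP1 cells in FICC-Seq, 4 were lower in FICC-Seq than in iCLIP of HAP1 cells, and 1-2 turned to −0.094. The share of tRNA-Leu-CAA at positions 53 and 54 against other loci became −7.43 points (adjusted p = 0.0951), and −7.20 (adjusted p = 0.0608) with the mean of locus shares, by the exact sign-flip test. With position 54 placed by the most counted position of the other cell line, which is 58 at 1-1 and 4-1 in HAP1 cells, the 5′ share difference turned to 6.24 points at 4-1 and 4.92 at 1-1, and 4-1 was no longer called at positions 59 to 65 (−10.16 points). The cause of the other changes was not tested.

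Leaving out each library gave 1 to 2 loci higher in HAP1 cells in FICC-Seq, 0 to 1 lower in iCLIP, 4 to 5 lower in FICC-Seq than in iCLIP of HEK293 and 2 to 4 of HAP1 cells, and −9.77 to −6.94 points for the family at positions 53 and 54, where 5 libraries cannot go below p = 0.0625 by the exact test. For the leader, first exon and intron, an alternative added after seeing the data, it gave −10.71 to −3.93 points between FICC-Seq and iCLIP. Ranges that crossed 0 were, for log2 changes between the lines, −0.11 to 0.13 for 1-2 in FICC-Seq, −0.31 to 0.11 for 1-1 and −0.06 to 0.53 for 4-1 in iCLIP, then −0.11 to 0.44 for 4-1 between methods in HAP1 cells, and at position 58, −0.056 to 2.56 points for 1-2, −2.46 to 2.58 for 3-1 and −2.77 to 0.76 for 1-1.

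With the replicate number as a block, no call of a locus between HAP1 and HEK293 cells changed. All counts of called loci stayed the same (5 lower in FICC-Seq than in iCLIP of HEK293 cells), and the 5′ share of 3-1 was no longer called (−17.3 points, exact sign-flip adjusted p = 0.0683).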
